A study of Mus musculus with 2 samples.

Results

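Haematopoietic cytokine receptors carry the signals of the growth factors that set how many blood cells of each kind are made. The 6 receptor genes described here are Epor, Csf3r, Csf2ra, Csf2rb, Il6st and Il3ra. They were taken by their gene symbols from the 31053 genes of the deposited tables, and all 6 were present. They were measured by single-cell RNA sequencing (10x Genomics, 3' ends) in LSK cells, the lineage-negative Sca1+ c-Kit+ fraction of bone marrow that is enriched for the stem cells of blood and for early progenitors. Both of the 2 libraries came from C57BL/6J mice 6 to 8 weeks old. The control library came from normal mice, and the irradiated library came from mice at day 15 after 5 Gy of total body irradiation. The labels do not give the number of animals behind either library or the sex of the animals. With 1 library per group no test between the groups was possible. Each value is given with a 95% interval that covers counting error only, and a difference between the libraries is described by its size.

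Receptors of this family have no enzyme activity of their own. When a cytokine brings receptor chains together, JAK kinases bound to the chains phosphorylate them and STAT transcription factors, which switch on survival and growth genes and also the SOCS and CISH inhibitors that turn the signal down. Epor binds erythropoietin and is needed for red cell production. Csf3r binds G-CSF, the main driver of neutrophil production. Csf2rb encodes the beta chain that GM-CSF, IL-3 and IL-5 receptors share, while Csf2ra and Il3ra encode the alpha chains that give specificity for GM-CSF and for IL-3. Il6st encodes gp130, the signalling chain shared by the receptors of IL-6, IL-11, LIF and oncostatin M.

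The 6 genes lie on different chromosomes, in GRCm38 with GENCODE M21 annotation. Epor (ENSMUSG00000006235) lies at chr9:21958897-21963506 on the minus strand, Csf3r (ENSMUSG00000028859) at chr4:126024550-126044440 on the plus strand and Csf2ra (ENSMUSG00000059326) at chr19:61223957-61228429 on the minus strand. Csf2rb (ENSMUSG00000071713) lies at chr15:78325752-78353847 on the plus strand, Il6st (ENSMUSG00000021756) at chr13:112464070-112510086 on the plus strand and Il3ra (ENSMUSG00000068758) at chr14:14346275-14356011 on the plus strand. Il3ra is overlapped on the other strand by Gm48860. The mouse has a second beta chain gene, Csf2rb2, beside Csf2rb. In the last 1000 bases of the transcript, where 3' reads fall, 0 of 951 windows of 50 bases were shared between Csf2rb and Csf2rb2, while 18.4% of the windows were shared over the whole transcript.

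RefSeq promoters (GRCm38.p6, 250 bases before to 50 after the gene start) were found for 5 of the 6 genes. The promoters of Epor, Csf3r and Il6st are shown because these genes had the largest ratios between erythroid-like and neutrophil-like cells, described further on, Epor being higher in the former and the other two in the latter. The first motif searched, on both strands, was AGATAA, bound by GATA factors of red cells and megakaryocytes. The second was GAGGAA, a core of sites bound by the myeloid factor PU.1. The third was TTNNGCAA, bound by C/EBP factors of granulocytes. No match overlapped another. The capitals mark the matches, and the spans are chr9:21963527-21963826 (minus strand), chr4:126024409-126024708 (plus strand) and chr13:112463820-112464119 (plus strand).
Epor: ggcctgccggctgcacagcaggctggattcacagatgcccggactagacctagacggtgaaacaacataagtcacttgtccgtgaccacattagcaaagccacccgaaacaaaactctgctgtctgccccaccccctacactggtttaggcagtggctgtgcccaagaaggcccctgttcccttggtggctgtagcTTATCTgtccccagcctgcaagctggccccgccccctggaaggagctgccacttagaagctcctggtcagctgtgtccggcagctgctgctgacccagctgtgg
Csf3r: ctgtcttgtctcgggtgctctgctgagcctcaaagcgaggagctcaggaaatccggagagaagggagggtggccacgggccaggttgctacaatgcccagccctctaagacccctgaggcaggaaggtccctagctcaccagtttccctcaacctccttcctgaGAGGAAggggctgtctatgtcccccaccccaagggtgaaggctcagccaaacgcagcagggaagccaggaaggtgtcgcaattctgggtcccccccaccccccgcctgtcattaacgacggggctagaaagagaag
Il6st: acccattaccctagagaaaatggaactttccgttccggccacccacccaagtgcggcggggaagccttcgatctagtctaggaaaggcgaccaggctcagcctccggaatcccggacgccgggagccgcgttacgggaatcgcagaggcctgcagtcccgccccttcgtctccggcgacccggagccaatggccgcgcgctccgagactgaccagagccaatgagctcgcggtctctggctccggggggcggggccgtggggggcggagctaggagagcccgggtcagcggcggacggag
Positions are counted from the RefSeq start behind each window, which need not be the GENCODE start given above. The Epor window lies wholly upstream of its GENCODE start at 21963506. The Epor promoter holds the GATA letters at position -54 from the RefSeq start, on the other strand as TTATCT. The Csf3r promoter holds the PU.1 letters at -86, and Il6st had no match to any of the 3 motifs in its window. Of the promoters not shown, that of Csf2ra holds the PU.1 letters at -14 and again at -8, and that of Il3ra had a C/EBP match at -134. Of 32851 promoters of the same length, 11.2% hold the GATA letters, 28.3% the PU.1 letters and 10.8% the C/EBP letters, so a match alone is common.

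After filtering, 7189 control and 5112 irradiated cells remained, with a median of 16084 and 29615 UMIs (unique molecular identifiers, each a count of 1 captured RNA) per cell. Levels are given as CPM, the UMIs of a gene per 1000000 UMIs summed over the cells. Of the genes behind the sort, Kit was detected in 82.8% and 80.5% of cells and Ly6a, which encodes Sca1, in 81.6% and 89.1%. The libraries shared 16 barcode sequences, 11 of them among kept cells. Cells were clustered without the 6 receptor genes and without the genes of the pathway lists given further on, other than class markers, so that these did not place a cell. Clusters were named from markers of other genes. The classes were HSC-like (1934 control and 411 irradiated cells, led by Hlf and Procr), lymphoid-like (2409 and 455, led by Dntt, Ccr9 and Il7r), neutrophil-like (114 and 1076, led by Elane, Ms4a3 and Hp), megakaryocyte-like (201 and 477, led by Pf4, Itga2b and Gp5) and erythroid-like (48 and 492, led by Car1, Klf1 and Ermap). Smaller classes were dendritic-like (25 and 76), B lineage-like (111 and 24) and T/NK-like (39 and 27). A further 2308 and 2074 cells stayed unnamed in clusters led by the cell cycle genes Nusap1 and Ung. The cluster called neutrophil-like also had S100a8, S100a9, Camp and Lcn2 of mature neutrophils among its leading genes, the lymphoid-like class joined a cluster led by Ccl3 and Ccl4 and another with Ifit3 and Cxcl10, and the dendritic-like cluster also had the immunoglobulin genes Igkc and Jchain. Of the lymphoid-like cells, 1936 of 2409 control cells came from the cluster with Ccl3, but 247 of 455 irradiated cells from the cluster with Ifit3.

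Over all cells, 5 of the 6 genes passed the minimum of a mean of 5 CPM, and of these 1, Csf2rb, was higher in the irradiated library by 1.5-fold or more and 0 were lower by that much. Of all 9032 genes that passed, 5.23% were higher and 13.8% lower by the same rule. Csf2rb stood at 17.4 CPM (16.7 to 18.1) in control against 28.5 CPM (27.7 to 29.4) in irradiated cells, log2 ratio 0.72 (0.65 to 0.79). Csf3r stood at 33.6 and 22.8 CPM, log2 ratio -0.56 (-0.62 to -0.50), just inside the size threshold. Csf2ra stood at 27.3 and 25.9 CPM, Il3ra at 25.3 and 31.5 CPM and Il6st at 11.2 and 9.63 CPM, with log2 ratios of -0.08, 0.32 and -0.22. Epor, below the minimum, went from 120 UMIs and 0.869 CPM (0.720 to 1.04) in control to 1044 UMIs and 6.42 CPM (6.03 to 6.82) in irradiated cells, log2 ratio 2.88 (2.61 to 3.17). The median log2 ratio was 0.12 over the 6 receptor genes with Epor counted in. Among the 5 that passed, the middle value was the -0.08 of Csf2ra, beside a median of -0.06 over all genes that passed. Scaling the libraries by the median of gene ratios in place of their totals moved every log2 ratio over all cells by 0.21, and with it Csf2ra turned from -0.08 to 0.14. In bulk sums of this kind, more cells of a class and more RNA per cell cannot be told apart, so each gene was also followed within classes.

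Counted by class, 2 of 5 receptor genes that passed (Csf3r and Csf2ra) were lower and 0 higher in lymphoid-like cells (6.08% lower and 3.46% higher among 9018 genes). In HSC-like cells 1 of 5 (Il3ra) was higher and 0 lower (3.11% and 6.11% of 9384 genes). In neutrophil-like cells 0 of 5 were higher and 1 (Il6st) was lower (2.54% and 3.72% of 8344 genes). In megakaryocyte-like cells 2 of 5 (Csf2rb and Il3ra) were higher and 1 (Csf3r) was lower (2.54% and 7.77% of 9102 genes), and in the unnamed clusters 1 of 5 (Csf2rb) was higher and 0 lower (1.98% and 6.52% of 8838 genes). These are counts over 5 genes and are a description of them only.

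**Figure D1:**
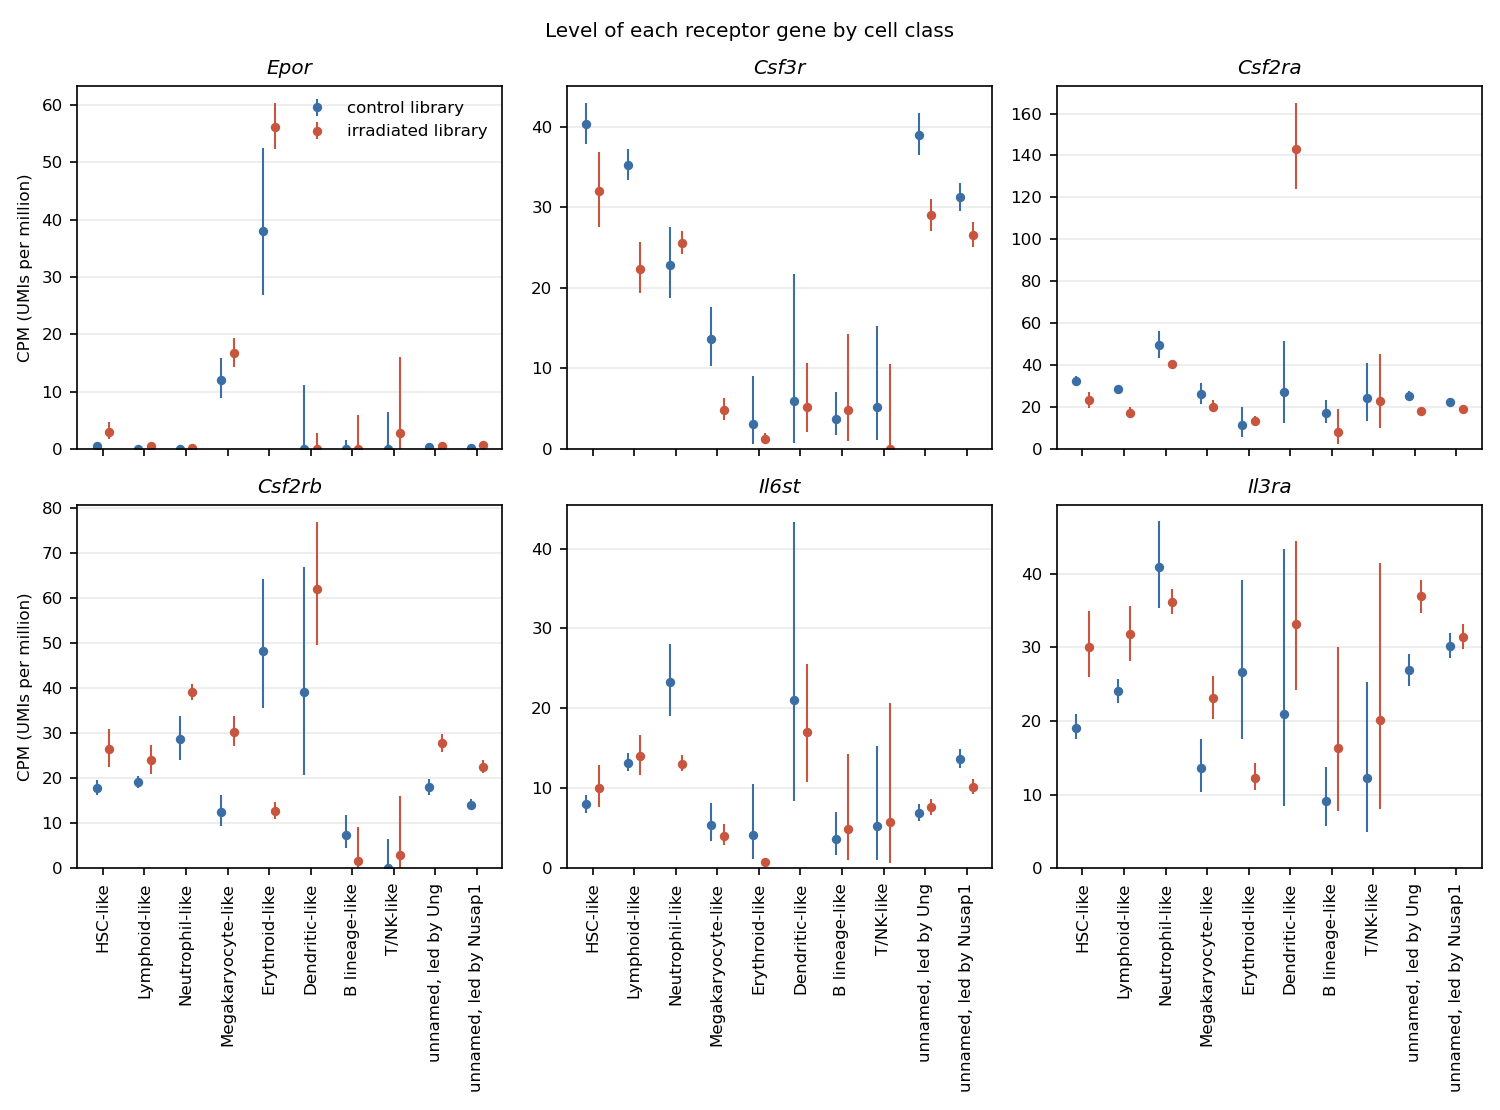
Level of each receptor gene in CPM (UMIs per 1000000, vertical axis, a separate scale per gene) in each cell class of the control (blue) and irradiated (red) library, with exact Poisson 95% intervals for counting error. Epor stands above 10 CPM in the megakaryocyte-like and erythroid-like classes alone, and Csf2ra reaches 143 CPM in irradiated dendritic-like cells.

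Most Epor UMIs came from erythroid-like and megakaryocyte-like cells. Erythroid-like cells held 38.1 CPM (26.8 to 52.5; 37 UMIs) in control against 56.2 CPM (52.4 to 60.3; 784 UMIs) in irradiated marrow. Megakaryocyte-like cells held 12.0 CPM (8.92 to 15.8) and 16.8 CPM (14.4 to 19.4). The order of the classes was the same in both libraries, and the intervals of these classes overlapped neither each other nor those of HSC-like cells within a library. HSC-like cells held 0.569 CPM from 14 UMIs and 3.05 CPM from 18 UMIs. In their cluster led by Pdzk1ip1 and Meg3, 8 UMIs gave 0.996 CPM in control cells and 9 UMIs gave 7.49 CPM in irradiated cells. Among lymphoid-like cells 1 UMI was found in 2409 control cells and 5 UMIs in 455 irradiated cells, and neutrophil-like cells gave 0 and 11 UMIs.

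Within the erythroid-like and megakaryocyte-like classes the Epor ratio was smaller than over all cells, while the few UMIs of HSC-like cells gave 2.42 (1.33 to 3.54). The log2 ratio was 0.49 (0.03 to 0.96) in megakaryocyte-like cells, within the size threshold, and 0.56 (0.09 to 1.08) in erythroid-like cells, which at 48 control cells were too few to be called. Of those 48 cells, 11 were high in mast cell and basophil markers and held 0 Epor UMIs, and without them and 3 such irradiated cells the ratio was 0.31 (-0.17 to 0.82). The megakaryocyte-like ratio was past the threshold under several alternatives, at 1.17 with thinned cells, 0.84 without the 10 cells with most Epor UMIs and 0.76 with 30 neighbours from all cells. Erythroid-like cells made up 0.668% of control and 9.62% of irradiated cells, and they held 30.8% of the Epor UMIs in control against 75.1% in irradiated marrow. Megakaryocyte-like cells held 42.5% and 17.3% of the Epor UMIs. After each cell was thinned to 5000 UMIs, Epor was detected in 9.52% (4 of 42) of control and 19.0% (90 of 474) of irradiated erythroid-like cells, against 33.3% and 56.1% before thinning. Without the cells high in mast cell and basophil markers the thinned shares were 12.9% (4 of 31) and 19.1% (90 of 471). In lymphoid-like cells, which should lack it, it was detected in 0 of 2402 and 0 of 454 thinned cells, which allows shares of thinned cells with a UMI of up to 0.125% and 0.661%. Before thinning the lymphoid-like shares were 0.0415% and 1.10%. The median depth was 15136 and 23564 UMIs in erythroid-like and 14267 and 19320 UMIs in lymphoid-like cells.

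In the 139 irradiated thinned cells with an Epor UMI, lineage genes were set beside those of all other cells. Klf1, a red cell transcription factor gene, was detected in 36.0% (28.0 to 44.5) of them and in 4.19% of the others. Gata1, which drives red cell and platelet genes, was detected in 28.1% and 6.25%. The neutrophil elastase gene Elane went the other way, at 5.04% and 31.4%, and Dntt of lymphoid progenitors stood at 0.719% and 20.6%. Only 18 control cells had an Epor UMI after thinning, and Pf4, a platelet chemokine gene, was detected in 38.9% (17.3 to 64.3) of them against 6.39% of the others. Klf1 was detected in 1 of the 18, or 5.56%.

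Csf3r was read from HSC-like, lymphoid-like, neutrophil-like and unnamed cells and little from erythroid-like cells. It stood at 40.3 CPM (37.9 to 42.9) in control against 32.0 CPM (27.6 to 36.9) in irradiated HSC-like cells, and at 35.2 CPM (33.4 to 37.2) and 22.4 CPM (19.4 to 25.7) in lymphoid-like cells. The 2 unnamed clusters together held 34.1 and 27.6 CPM, with 46.1% and 53.5% of all Csf3r UMIs. Megakaryocyte-like cells held 13.6 and 4.82 CPM. Erythroid-like cells gave 3.09 CPM from 3 UMIs and 1.29 CPM from 18 UMIs. After thinning, Csf3r was detected in 0 of 42 and in 0.211% of 474 erythroid-like cells, against 17.6% and 13.5% of HSC-like cells (36.5% and 34.5% before thinning). The median depth of HSC-like cells was 11556 and 13842 UMIs.

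The difference in Csf3r between the libraries was not of one size across classes. Megakaryocyte-like cells were called lower, with 13.6 CPM (10.3 to 17.6; 58 UMIs) in control against 4.82 CPM (3.60 to 6.32; 52 UMIs) in irradiated marrow, log2 ratio -1.50 (-2.07 to -0.93). Over all alternatives run this ratio lay between -1.93 and -1.11. Lymphoid-like cells were also called lower, at -0.65 (-0.87 to -0.44). Within their clusters the ratio was smaller, at -0.32 in the cluster with Ccl3 and -0.44 in that with Ifit3, both inside the threshold, and the irradiated library drew more of its cells from the cluster with Ifit3, where the control level was 22.9 CPM against 39.5 CPM. HSC-like cells stood at -0.33 (-0.57 to -0.11).

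Neutrophil-like cells held 22.8 CPM (18.7 to 27.6) of Csf3r in control against 25.6 CPM (24.2 to 27.1) in irradiated marrow, log2 ratio 0.17 (-0.12 to 0.47). This class held cells of another kind in control: in 12 of 114 control and 2 of 1076 irradiated cells mature neutrophil or mast cell and basophil markers took at least 1% of UMIs. All 8 mature neutrophil markers were detected in both libraries, with a summed level of 9449 CPM in control against 195 CPM in irradiated cells of the class. The 12 control cells held 24 of the 106 Csf3r UMIs, at 178 CPM. Without these cells, an alternative added after seeing the data, Csf3r stood at 18.2 and 25.6 CPM, log2 ratio 0.50 (0.17 to 0.84). It was -0.59 with each cell weighted equally, -0.50 with thinned cells and 0.65 without the 10 cells with most of its UMIs, so no direction was read for Csf3r in this class.

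**Figure D2:**
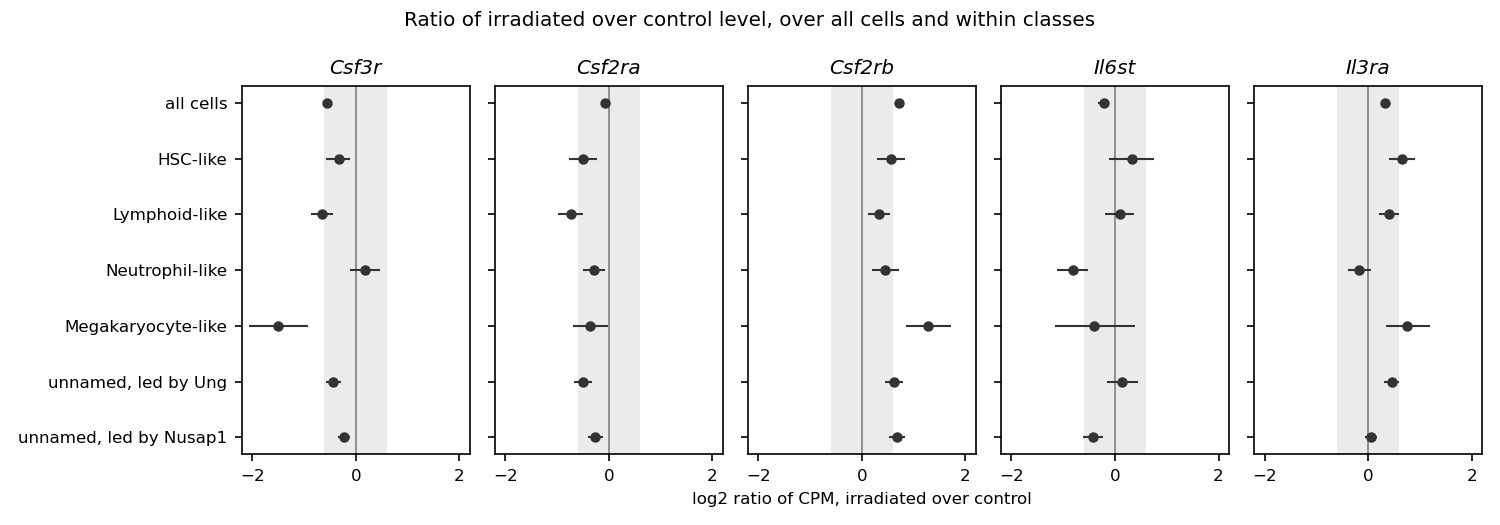
Log2 ratio of CPM in irradiated over control cells (horizontal axis) for 5 receptor genes over all cells and within each class with at least 100 cells in each library, and each unnamed cluster, with exact 95% intervals for counting error. The grey band marks ratios of less than 1.5-fold, and in this clustering Csf2rb lies to the right of 0 in each class (in lymphoid-like cells it reached -0.13 under another) while Csf2ra lies to the left (in neutrophil-like cells it reached 0.07 with thinned cells).

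Csf2rb, the shared beta chain gene, had a log2 ratio above 0 in all 4 compared classes and in the unnamed clusters, although in lymphoid-like cells it lay near or below 0 under other clusterings. It stood at 17.9 CPM (16.3 to 19.6) in control against 26.4 CPM (22.4 to 30.9) in irradiated HSC-like cells, log2 ratio 0.56 (0.29 to 0.83) just inside the threshold. It was called higher in megakaryocyte-like cells, at 12.5 CPM (9.33 to 16.3) and 30.3 CPM (27.1 to 33.8), log2 ratio 1.28 (0.86 to 1.73). The unnamed clusters were also called higher, at 15.6 and 24.6 CPM and log2 ratio 0.66 (0.55 to 0.78). Neutrophil-like cells held 28.6 CPM (24.0 to 33.9) and 39.1 CPM (37.3 to 40.9), log2 ratio 0.45 (0.19 to 0.71). The megakaryocyte-like ratio lay between 0.46 and 1.67 over the alternatives, and the lowest value, with cells thinned to 5000 UMIs, was inside the threshold. The 9 mast cell and basophil markers, summed, also stood higher in the irradiated library in these classes, at 43.9 and 94.5 CPM in megakaryocyte-like, 35.7 and 85.1 CPM in unnamed and 18.0 and 34.7 CPM in HSC-like cells. Between 6 and 7 of the 9 markers were detected in each, and Cma1 and Tpsb2 were at 0. In these 3 classes 0 cells had at least 1% of their UMIs in such markers, and the part of the markers in the Csf2rb ratios was not tested.

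The lymphoid-like value of Csf2rb rested on few cells. It was 19.1 CPM (17.7 to 20.5) in control against 24.0 CPM (21.0 to 27.4) in irradiated cells, log2 ratio 0.33 (0.11 to 0.55), and 1 irradiated cell alone held 32 of the 221 UMIs. Without the 10 cells with most Csf2rb UMIs in each library the ratio was -0.08. It was 0.05 and -0.01 at Leiden resolutions 0.5 and 1.5, -0.13 with 30 neighbours drawn from all cells, 0.04 with a limit of 5% mitochondrial UMIs and -0.04 without the highest doublet scores. T/NK-like cells gave 0 and 1 Csf2rb UMI and B lineage-like cells 7.41 CPM and 1.63 CPM. After thinning Csf2rb was detected in 1 of 102 control and 0 of 23 irradiated B lineage-like cells, against 7.78% and 12.8% of HSC-like cells (18.7% and 28.2% before thinning). The median depth of B lineage-like cells was 22435 and 24135 UMIs.

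In erythroid-like cells Csf2rb stood at 48.3 CPM (35.5 to 64.3; 47 UMIs) in control against 12.8 CPM (11.0 to 14.8; 178 UMIs) in irradiated marrow. Il3ra stood at 26.7 CPM (17.5 to 39.2) and 12.3 CPM (10.6 to 14.3). The control part of this class held mast cell and basophil markers at a summed level of 7768 CPM against 159.8 CPM in irradiated cells, with Cma1 and Tpsb2 at 0 in control and Tpsb2 at 0 in irradiated cells of 9 markers. In 11 of the 48 control and 3 of the 492 irradiated cells such markers took at least 1% of UMIs. Those 11 control cells held 39 of the 47 Csf2rb UMIs, at 243 CPM, and 19 of the 26 Il3ra UMIs, at 119 CPM, but 0 of the 37 Epor UMIs. Without them Csf2rb stood at 9.85 CPM (4.25 to 19.4) and 12.1 CPM (10.3 to 14.1), log2 ratio 0.29 (-0.72 to 1.53). Il3ra then stood at 8.62 and 12.0 CPM, log2 ratio 0.48 (-0.60 to 1.81), and Epor at 45.6 and 56.3 CPM, log2 ratio 0.31 (-0.17 to 0.82).

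**Figure D3:**
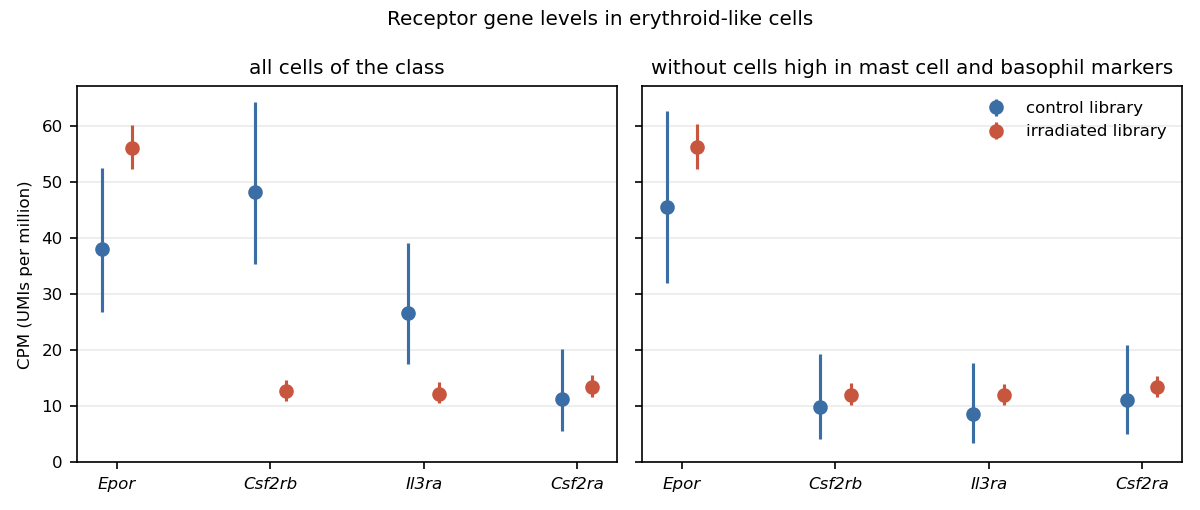
Level in CPM (UMIs per 1000000, vertical axis) of 4 receptor genes in erythroid-like cells of the control (blue) and irradiated (red) library, over all cells of the class (left) and without the 11 control and 3 irradiated cells in which mast cell and basophil markers or mature neutrophil markers took at least 1% of UMIs (right). Bars are exact Poisson 95% intervals, and the control levels of Csf2rb and Il3ra drop from 48.3 to 9.85 CPM and from 26.7 to 8.62 CPM while that of Csf2ra stays near 11 CPM.

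Csf2ra, the GM-CSF alpha chain gene, had a log2 ratio below 0 in the 4 compared classes and the unnamed clusters, though not in neutrophil-like cells once these were thinned. It was called lower in lymphoid-like cells, at 28.6 CPM (27.0 to 30.4) in control against 17.2 CPM (14.6 to 20.1) in irradiated cells, log2 ratio -0.74 (-0.99 to -0.50). That ratio was -0.87 in the cluster with Ccl3 and -0.35 in the cluster with Ifit3. HSC-like cells held 32.5 CPM (30.3 to 34.8) and 23.2 CPM (19.5 to 27.4), log2 ratio -0.49 inside the threshold. Neutrophil-like cells held 49.5 CPM (43.3 to 56.4) and 40.6 CPM (38.8 to 42.4), the highest level among these 4 classes in each library. Their log2 ratio was -0.29 (-0.49 to -0.08), and it was 0.07 with cells thinned to 5000 UMIs. Over all cells the ratio of Csf2ra was near 0, although the 4 compared classes and the unnamed clusters lay below 0. Erythroid-like cells stood at 0.25 (-0.62 to 1.28), with 11.3 and 13.5 CPM. Neutrophil-like cells, the compared class with the highest level, made up 1.59% of control and 21.0% of irradiated cells.

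Dendritic-like cells, whose precursors grow under GM-CSF, had 9 Csf2ra UMIs and 27.0 CPM (12.4 to 51.3) in 25 control cells and 194 UMIs and 143 CPM (124 to 165) in 76 irradiated cells. The intervals did not overlap, the log2 ratio was 2.41 (1.45 to 3.56), and the class was too small to be called. Markers of other cells also stood higher in the irradiated part of this class: 12 erythroid markers summed to 228 and 2316 CPM (5 and 11 detected), 10 neutrophil progenitor markers to 183 and 579 CPM (4 and 9 detected) and 7 macrophage markers to 9.01 and 39.9 CPM (2 and 7 detected). Their part in the Csf2ra difference was not tested. In the same small class 18.9% of 8769 genes were higher by that threshold and 32.0% lower. After thinning Csf2ra was detected in 27.3% (6 of 22) and 50.7% (35 of 69) of these cells, against 32.0% and 81.6% before thinning, at a median depth of 10691 and 17470.5 UMIs. B lineage-like cells, set beside it as a class that does not depend on GM-CSF, showed it in 6.86% (2.80 to 13.6) of 102 control and 0 of 23 irradiated thinned cells. The shares in irradiated lymphoid-like, HSC-like, megakaryocyte-like, erythroid-like and unnamed cells, 7.71% to 10.5%, lay within that interval, as did those of control erythroid-like (9.52%) and unnamed cells (12.0%).

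Il3ra, the IL-3 alpha chain gene, was called higher in HSC-like and in megakaryocyte-like cells. HSC-like cells held 19.1 CPM (17.5 to 21.0) in control against 30.1 CPM (25.9 to 34.9) in irradiated marrow, log2 ratio 0.65 (0.40 to 0.91). Megakaryocyte-like cells held 13.6 CPM (10.3 to 17.6) and 23.1 CPM (20.3 to 26.1), log2 ratio 0.76 (0.34 to 1.20). Neither call held throughout. The HSC-like ratio was inside the threshold under 5 of 10 alternatives, at 0.36 without the highest doublet scores, 0.50 with a limit of 5% mitochondrial UMIs, 0.53 at Leiden resolution 1.5, 0.54 without the 10 cells with most UMIs and 0.57 with receptor and pathway genes left in the clustering. It was also 0.57 in the HSC-like cluster led by Hlf. The megakaryocyte-like ratio was inside it under 3 of 10, at 0.53 at resolution 1.5, 0.54 with 30 neighbours from all cells and 0.56 with the 5% limit. The mast cell and basophil markers given above for both classes stood higher with it, and cells high in them within the erythroid-like class held 119 CPM of Il3ra. Their part in these ratios was not tested. Lymphoid-like cells held 24.1 and 31.8 CPM, log2 ratio 0.40 (0.21 to 0.59). Neutrophil-like cells had the highest level of the compared classes in each library, 40.9 CPM (35.3 to 47.2) and 36.2 CPM (34.5 to 37.9), with a ratio of -0.18 (-0.39 to 0.05). Thinned shares there, 10.7% and 18.5%, ran against the CPM, so no direction was read for Il3ra in this class. B lineage-like cells showed Il3ra in 5.88% (2.19 to 12.4) and 4.35% (0.110 to 21.9) of thinned cells, and the HSC-like shares of 7.58% and 12.8% lay within these intervals.

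Il6st, the gp130 gene, was called lower in neutrophil-like cells alone of the classes compared. They held 23.3 CPM (19.1 to 28.1; 108 UMIs) in control against 13.1 CPM (12.1 to 14.2; 639 UMIs) in irradiated marrow, log2 ratio -0.82 (-1.12 to -0.52). The 10 control cells with most of its UMIs held 40.7% of them, and without the 10 such cells of each library the ratio was -0.34, inside the threshold. Lymphoid-like cells held 13.2 and 14.0 CPM and HSC-like cells 7.97 CPM (6.89 to 9.16) and 9.98 CPM (7.60 to 12.9), with overlapping intervals in both classes. Megakaryocyte-like cells held 5.41 and 4.08 CPM, below the minimum level on average. Erythroid-like cells gave 4 and 10 UMIs, or 4.11 and 0.717 CPM. Cells with an Il6st UMI after thinning held several lineage genes more often than the rest: Dntt was detected in 60.1% (54.7 to 65.2) against 43.8% in control, and Irf8, a monocyte and dendritic factor gene, in 48.8% (42.0 to 55.7) against 23.6% in irradiated cells. The neutrophil genes Mpo and Elane were also detected more often beside Il6st in irradiated cells, in 72.8% (66.4 to 78.6) against 60.1% and in 39.6% (33.1 to 46.5) against 30.2%.

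To separate levels within classes from the number of cells in each class, the irradiated levels of every cluster were weighted by the control library's share of UMIs per cluster. At this fixed mix Epor had log2 ratio 1.22 in place of 2.88, and Csf2rb one of 0.51 in place of 0.72. Csf3r moved from -0.56 to -0.34. Csf2ra moved the other way, from -0.08 to -0.46, and Il3ra stayed at 0.34 against 0.32. The control levels at the irradiated mix gave the reverse view, with 2.27 for Epor, 0.18 for Csf2ra and -0.34 for Csf3r. Csf2rb then stood at 0.38, Il3ra at 0.27 and Il6st at 0.30, where the observed ratio of Il6st was -0.22. This view weights the 48 control erythroid-like cells by the 8.57% of UMIs that the class held in irradiated marrow. Of those 48 cells, 11 were high in mast cell and basophil markers and in Csf2rb and Il3ra, and their part in this view was not tested. The Epor ratio at the control mix lay between 1.17 and 1.29 under 4 other clusterings, while that of Il6st, -0.10, lay between -0.14 and 0.29.

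**Figure D4:**
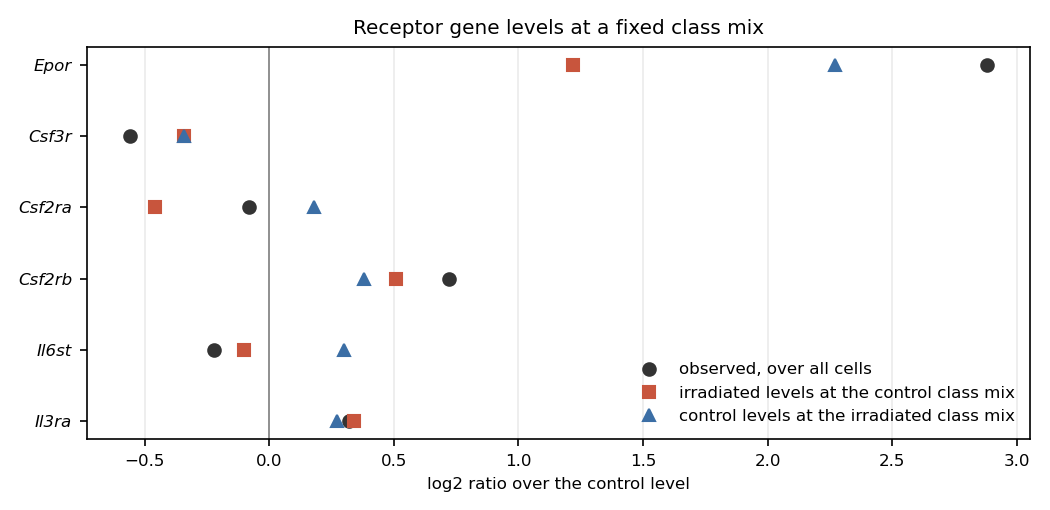
Log2 ratio over the control level (horizontal axis) of each receptor gene as observed over all cells (circles), with irradiated levels at the control class mix (squares) and with control levels at the irradiated class mix (triangles). The observed 2.88 of Epor lies to the right of 1.22 and 2.27, and the Csf2ra and Il6st points each fall on both sides of 0.

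Receptor chains were then looked for in the same cell, after thinning to 5000 UMIs. Of 7123 control and 5053 irradiated cells, 57.5% and 55.5% had no UMI of any of the 6 genes, 33.5% and 34.4% had 1 of them and 8.00% and 8.81% had 2. Csf2rb with Csf2ra, the chains of the GM-CSF receptor, were found together in 70 control and 88 irradiated cells, where the product of the single shares gives 72.4 and 75.5 cells. Csf2rb with Il3ra, the chains of the IL-3 receptor, were found together in 70 and 114 cells, where the product gives 57.1 and 93.3. Csf3r and Epor were found together in 0 of 7123 and 0 of 5053 cells, where the product gives 2.84 and 13.9 cells. The exact upper bounds of the shares are 0.0518% and 0.0730%. Within any single class of either library the product was at most 0.886 cells. Il6st with Csf3r occurred together in 48 and 17 cells, with products of 54.9 and 21.7. Products over all cells mix classes with unlike levels. Within irradiated classes, Csf2rb with Csf2ra gave 34 cells against a product of 37.6 in neutrophil-like cells. In unnamed cells it gave 23 against 22.5, and in erythroid-like cells 6 against 2.81. Csf2rb with Il3ra gave 41 against 34.5 in neutrophil-like and 42 against 38.5 in unnamed cells. It gave 10 against 6.85 in megakaryocyte-like and 6 against 2.35 in erythroid-like cells. HSC-like cells gave 7 against 6.50, lymphoid-like cells 6 against 5.96 and dendritic-like cells 2 against 3.03. In the control library it gave 7 against 11.3 in HSC-like cells, but 27 against 21.1 in lymphoid-like and 31 against 20.1 in unnamed cells. At this depth a chain that was not counted in a cell may still have been present.

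Cells with a UMI of the other receptor genes were set beside the rest in the irradiated library, again after thinning. Elane was detected in 43.0% (39.0 to 47.1) of cells with Csf2ra and 29.0% without, in 42.9% (39.0 to 46.9) with Csf2rb and 28.9% without, and in 38.3% (34.1 to 42.7) with Csf3r and 29.8% without. Cpa3, a mast cell protease gene, was detected in 13.2% (10.7 to 16.1) of cells with Csf2rb and 6.95% without, and in 10.9% (8.78 to 13.4) of cells with Il3ra and 7.19% without. Klf1 ran lower beside Csf3r, at 0.791% and 5.54%, and Hlf ran higher beside it, at 20.2% (16.7 to 23.9) and 13.9%. In the control library Elane was detected in 2.49% of cells with Csf3r and 3.12% without. With Csf2ra it was detected there in 4.47% against 2.79%, and with Csf2rb in 5.41% against 2.82%.

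For each receptor gene the 3 genes with the most similar profile were found over 20 points, the 10 named clusters in 2 libraries, which share their libraries and depth. For Epor these were Abhd16a (Pearson r of 0.908), Gclm (0.880) and Apoe (0.875). For Csf3r they were Tctex1d2 (0.956), Kcnk12 (0.913) and Cd34 (0.880), the last a surface protein gene of stem and progenitor cells. For Il3ra they were Slc4a8 (0.847) and the neutrophil granule genes Ctsg (0.820) and Mpo (0.812). Csf2ra was most like Rragc (0.868), Arpc2 (0.852) and Pak1 (0.845), Csf2rb was most like Aph1a (0.829), Alox5ap (0.810) and Ssr3 (0.801), and Il6st was most like Lmo1 (0.868), Pstpip1 (0.859) and Napsa (0.857). Among the 6 genes themselves r was 0.65 for Csf2rb with Il3ra and -0.61 for Epor with Il6st, the extremes of the 15 pairs.

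Other genes of the same signalling system were taken from lists. Of the 19 related receptor genes given here 13 passed the minimum, and over all cells 0 passed the threshold upwards and 7 downwards in the irradiated library, with a median log2 ratio of -0.59. Of all genes 5.23% were higher and 13.8% lower. At 2-fold 3 of these receptor genes were lower, and at a mean of at least 20 CPM 5 were. The 7 were Il1r1 of interleukin 1 (29.6 and 8.20 CPM, log2 ratio -1.85), Il7r of early lymphoid cells (14.0 and 4.08 CPM, -1.78), Flt3 of lymphoid and dendritic progenitors (127 and 46.4 CPM, -1.45), Kit, Il11ra1, Il21r and Il2rg. Il7r and Flt3 are class markers, and Kit was part of the sort. Il11ra1, which pairs with gp130 to bind interleukin 11, was called lower within 3 of the 4 compared classes. HSC-like cells held 62.8 and 31.1 CPM of it (-1.01, interval -1.24 to -0.79), lymphoid-like cells 22.7 and 11.5 CPM (-0.98) and megakaryocyte-like cells 66.5 and 35.0 CPM (-0.93). The second beta chain gene, Csf2rb2, was below the minimum over all cells at 1.96 and 3.67 CPM and was called higher in HSC-like (3.01 and 7.95 CPM, 1.40) and megakaryocyte-like cells (2.12 and 10.1 CPM, 2.26).

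Genes downstream of the receptors were counted by the same rule, beside the same 5.23% and 13.8% of all genes. Of 4 JAK genes 1, Jak1, was lower (128 and 75.9 CPM, log2 ratio -0.75), and Jak2, the kinase that Epor and Csf2rb use, stood at 15.0 and 13.8 CPM (-0.12), with Jak3 at -0.45 and Tyk2 at -0.01. Of the 6 STAT genes given here 1, Stat4, was lower (34.4 and 19.4 CPM, -0.83), while Stat5a, the usual target of Epor, stood at 27.6 and 28.0 CPM. Stat3, the usual target of gp130 and Csf3r, stood at 59.8 and 45.8 CPM (-0.38) and Stat5b at 34.8 and 27.0 CPM (-0.36). Of 10 adaptor genes that passed 1, Irs2, was lower (11.5 and 4.89 CPM, -1.23), and Grb2, Lyn and Crkl stood at 0.22, 0.19 and -0.24. Of 11 target genes that passed, Ccnd1, a cyclin gene, was higher (30.1 and 53.9 CPM, 0.84) and Junb was lower (499 and 302 CPM, -0.73), while Mcl1 and Ccnd2 stood at -0.43 and -0.38.

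Most genes of the whole list of inhibitors of receptor signalling were inside the threshold, over all cells and within classes. Those called higher within classes were all SOCS genes or Cish. Of 17 inhibitor genes that passed over all cells, Socs2 was higher (4.38 and 8.30 CPM, 0.92) and Socs5 lower (7.34 and 4.75 CPM, -0.63), and the list had a median log2 ratio of -0.22. Within megakaryocyte-like cells 4 of 18 were higher and 0 lower (2.54% and 7.77% of all genes): Socs1, Socs2, Socs3 and Cish. Cish stood there at 16.5 and 32.3 CPM, log2 ratio 0.97 (0.60 to 1.36), and Socs2 at 10.3 and 26.1 CPM, 1.34 (0.88 to 1.83). The same 4 genes, of 17, were higher in lymphoid-like cells (3.46% of all genes), with Socs2 at 1.01 and 14.4 CPM, 3.83 (3.30 to 4.39). In HSC-like cells 2 of 18, Socs2 and Socs3, were higher (3.11% of all genes), and in neutrophil-like cells 1 of 13, Socs3 (2.54%). Socs3 was called higher in all 4 compared classes, at 0.62 in lymphoid-like, 0.80 in HSC-like, 0.94 in megakaryocyte-like and 1.69 in neutrophil-like cells, although over all cells it stood at 34.5 and 31.5 CPM (-0.13). In the control library Socs3 was 57.6 CPM in HSC-like and 3.88 CPM in neutrophil-like cells.

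Of 15 ligand genes 1, Osm, passed the minimum. Osm encodes oncostatin M, a ligand of gp130, and stood at 13.2 CPM in control against 34.9 CPM in irradiated cells, log2 ratio 1.40 (1.32 to 1.48). It was called higher in each of the 4 compared classes, by 1.37 to 1.60. Epo, Thpo and Il3 had 0 UMIs in both libraries, and Csf3 had 0 and 2 UMIs.

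**Figure D5:**
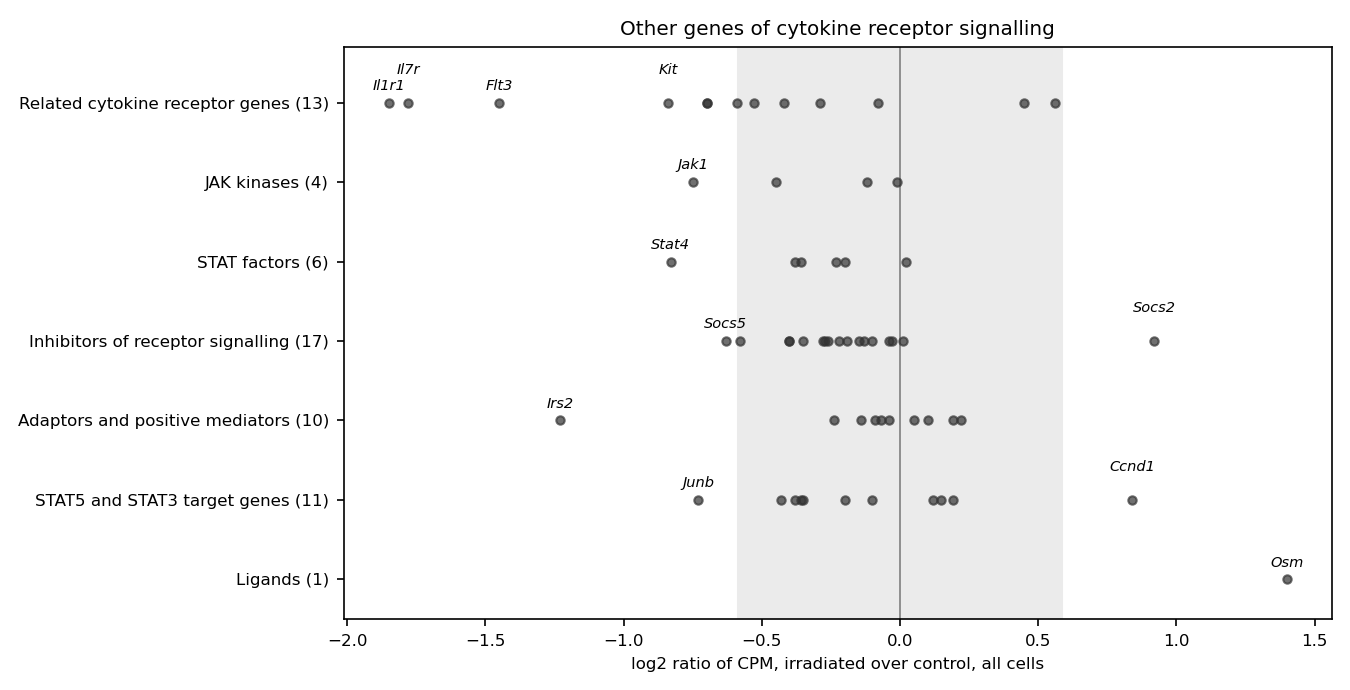
Log2 ratio of CPM in irradiated over control cells (horizontal axis), over all cells, of each gene given here of 7 lists that passed a mean of 5 CPM, with the number of such genes in brackets. The grey band marks ratios of less than 1.5-fold, up to 4 genes outside it are named per list, and 7 of the 13 related receptor genes lie to the left of the band.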

How the data were processed

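The authors deposited raw UMI counts per gene and barcode for 1 control and 1 irradiated library, groups being taken from the labels. The submitters' processing notes name Cell Ranger 2.1.1 and mm10, while the matrix headers give software 3.1.0. The deposited counts of 7686 and 5596 barcodes summed to 139274656 and 165119247 UMIs. Barcodes with at least 1000 UMIs, at least 500 genes and at most 10% mitochondrial UMIs were kept. Scrublet marked 1 and 16 cells (0.0139% and 0.312%) as doublets, far under the expected 6%, so it did not work here, and doublets beyond these cells were not removed. The alternative without the highest doublet scores left out the 6% of cells of each library with the highest Scrublet scores. It therefore shares this limit. Clustering (scanpy 1.11.5, 2000 variable genes, 30 components, 15 neighbours from each library, Leiden resolution 1) left out the receptor and pathway genes unless they were class markers. A cluster was named with at least 3 markers of a list among its top 25 genes by fold, at least 3 detected in 10% of its cells, and no other list ahead in its top 10, a rule set after seeing the data. Names rebuilt in this way may differ from the study's.

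UMIs were summed per library and class and divided by their total. Levels have exact Poisson intervals, ratios exact conditional (Clopper-Pearson) intervals and shares exact binomial intervals, all 95% and for counting error only. A ratio was called by size alone, at 1.5-fold and a mean of at least 5 CPM, in classes with at least 100 cells in each library. Other levels needed 20 cells. A count of 0 allows up to 3 counts of the total. The interval step was tested on simulated data. The receptor genes and all lists were chosen with earlier results of these data known. Named besides the 6 receptor genes were the up to 4 genes per pathway list with the largest ratio over all cells, the 3 genes most like each receptor gene at a mean of at least 20 CPM, and marker genes. Some listed genes are not reported here and are left out of the pathway counts over all cells. Csf2rb2, Kit, Il11ra1, Il21r, Il2rg, Stat5a, Socs1, Socs3, Epo, Thpo, Il3, Csf3 and the lineage genes set beside positive cells were named after their values were seen. Alternatives were other cell filters, weights, depths, scalings, thresholds and clusterings.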

Additional observations from a re-analysis of the deposited data

How the results depend on the processing

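No paired analysis was possible because each group has 1 library. The log2 ratios over all cells of the 6 genes kept their direction under all alternatives run, apart from Csf2ra, which was 0.14 under median-of-ratios scaling. Of the ratios over all cells under an alternative, 34 stayed within their counting interval and 14 did not, and within classes the numbers were 183 and 27. With each cell thinned to 5000 UMIs the ratios over all cells were 3.60 for Epor, -0.69 for Csf3r, 0.81 for Csf2rb and 0.50 for Il3ra. With each cell weighted equally they were -0.66 for Csf3r, -0.15 for Csf2ra, -0.09 for Il6st and 0.47 for Il3ra. Under median-of-ratios scaling they were -0.35 for Csf3r, 0.93 for Csf2rb, -0.01 for Il6st and 0.53 for Il3ra. Without the 10 cells with most UMIs Epor was 3.23. Over all cells the genes called lower numbered 1 in place of 0 with thinned cells, with equal weights and at a lower fold threshold. Those called higher numbered 0 at 2-fold and 2 with no minimum level.

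In lymphoid-like cells 2 genes were called higher at the lower fold and 1 with no minimum level, and 0 were lower at 2-fold. In HSC-like cells, where 1 was higher, the count was 2 at Leiden resolutions 0.5 and 1.5, with thinned cells, under median-of-ratios scaling, without the highest doublet scores and with no minimum level. It was 3 with equal weights and at the lower fold, and 0 at 2-fold, without the 10 cells with most UMIs and with receptor and pathway genes left in the clustering. The genes called also changed: at resolution 1.5 and without the highest doublet scores the 2 were Csf2rb (0.65 and 0.59) and Il6st (0.79 and 0.81), and with a limit of 5% mitochondrial UMIs the 1 was Csf2rb (0.98), with Il3ra inside the threshold in all 3. Of the 59 Il6st UMIs of irradiated HSC-like cells, 1 cell held 8. Without the 10 cells with most Il6st UMIs in each library its HSC-like ratio was -0.34. In HSC-like cells 1 gene was lower at resolution 0.5 and without the 10 cells, and 2 were lower at the lower fold. In neutrophil-like cells 1 gene was higher with thinned cells, at the lower fold and with no minimum level, and 2 without the 10 cells, while 0 were lower without the 10 cells, at 2-fold and at a mean of at least 20 CPM. In megakaryocyte-like cells 1 gene was higher at resolution 1.5, at 2-fold and at 20 CPM, and 3 with equal weights, under median-of-ratios scaling, without the 10 cells, without the highest doublet scores and at the lower fold, while 2 were lower with thinned cells and at the lower fold, and 0 were lower at 20 CPM. The causes were not tested. Without thinning, the difference in the share of cells with a UMI turned from below to above 0 for Csf3r (0.161 points), Csf2ra (8.08 points) and Il6st (4.59 points), where irradiated cells were deeper. Resolution 0.5 gave no megakaryocyte-like class, and counts with all deposited barcodes could not be run within classes. At these depths a receptor gene missed in a cell may still be present.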
